A study of Mus musculus with 6 samples.

Results

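Cholesterol genes of the liver were followed in mouse pups that expressed the human *SRY* gene ectopically. The set held 35 genes, chosen by name for their place in cholesterol synthesis, in its control by the sterol regulatory element-binding proteins (SREBP), or in uptake, intracellular transport, esterification and export, and every probe of the liver array table that carried one of these names was taken. Of the 35 genes, 31 were in the table, among 18138 gene symbols in all, and they were read by 46 of its 25697 probes. The expression of *Hmgcs1*, *Mvk*, *Fdft1* and *Npc1* was not analysed here.

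Total RNA from the livers of 6 male pups on the FVB background (FVB/N in the study's methods), collected on postnatal day 6, was hybridised to MouseRef-8 v2.0 BeadChips, 3 arrays from hSRY-ON pups and 3 from hSRY-OFF pups. By the methods' definitions of hSRY-ON and hSRY-OFF, both groups carried the *Signalox-hSRY* responder transgene, inserted once, at the *H11* locus. The study also describes control littermates that lacked the responder, and its results call the array controls age-matched. In hSRY-ON pups the transgene had been switched on at the single-cell embryo stage by Cre recombinase carried over in the oocytes of *Ddx4-Cre* mothers, so that FLAG-tagged human SRY and EGFP were made from the ubiquitously active CAG promoter, and the methods chose hSRY-ON animals that had not themselves inherited *Ddx4-Cre*. In hSRY-OFF pups, as so defined, the transgene was not recombined, and the same promoter drove DsRed2 in place of *SRY*. The genotype of the mothers of the hSRY-OFF pups is not given, so mothers and litters could not be compared between the groups. The responder was a single line, and the active transgene was carried by every organ of the hSRY-ON pups and not by the liver alone. The study reports that hSRY-ON pups grew more slowly than control littermates, hardly suckled, lacked milk in the stomach and had fatty livers. Day 6 was chosen as an age when growth retardation could already be seen. Feeding and growth thus differed along with the transgene, and their part in the liver RNA was not tested. The array's *Sry* probe was detected on 0 of the 6 arrays and bears the name of the mouse gene, so the labels could not be checked against the transgene's own RNA.

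Cholesterol is built in the endoplasmic reticulum from acetyl-CoA, first through the mevalonate pathway to farnesyl diphosphate, then through squalene to lanosterol, and last through a series of demethylations, reductions and isomerisations of the sterol rings. The pathway is governed by SREBP, which is held in the endoplasmic reticulum by the INSIG proteins through its escort SCAP when sterols are plentiful, and which otherwise moves to the Golgi, where proteases release the part that switches on transcription of the synthesis genes. The liver also takes up cholesterol with lipoproteins, stores it as esters, secretes it into bile and loads it onto high-density lipoprotein.

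Values are log2 intensities after background correction and quantile normalization. Differences are hSRY-ON minus hSRY-OFF on this log2 scale, with the SE of the limma fit, so that a fall of 1 log2 unit is a level 2-fold lower. Testing was limited to probes that 3 or more of the 6 arrays detected (detection p below 0.01), and a probe was called at a Benjamini-Hochberg adjusted p under 0.05 over all 10734 probes tested. Adjusted p-values are from that fit unless another setting is named beside them. The arrays detected between 10318 and 10762 probes each, and pairs of arrays correlated at 0.987 to 0.992 within hSRY-OFF, 0.965 to 0.982 within hSRY-ON and 0.912 to 0.939 between the groups. Spread within a group was wider in hSRY-ON, with a median SD of 0.21 against 0.14 in hSRY-OFF.

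Of the 46 probes, 38 were tested, for 26 genes. Lower signal in hSRY-ON was called at 22 of them and higher signal at 3, and the other 13 were not called. Over all tested probes 33.1% were called in either direction, 17.2% as lower and 15.8% as higher, and the median difference was 0.02. The lower calls were mostly in the synthesis genes, where 16 of 19 tested probes (84.2%), for 13 of 15 tested genes, were lower and 0 were higher. Among the SREBP regulators 3 of 11 tested probes were lower, all of *Mbtps1*, and 3 were higher, all of *Insig2*. Among the uptake, transport, esterification and export genes 3 of 8 tested probes were lower, for *Stard4* and *Soat2*, and 0 were higher. The median difference was -1.15 for the synthesis probes, 0.43 for the regulators and -1.08 for uptake, transport and export. RNA from whole liver was measured, so that fewer cells of a type and less RNA per cell cannot be told apart.

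**Figure D1:**
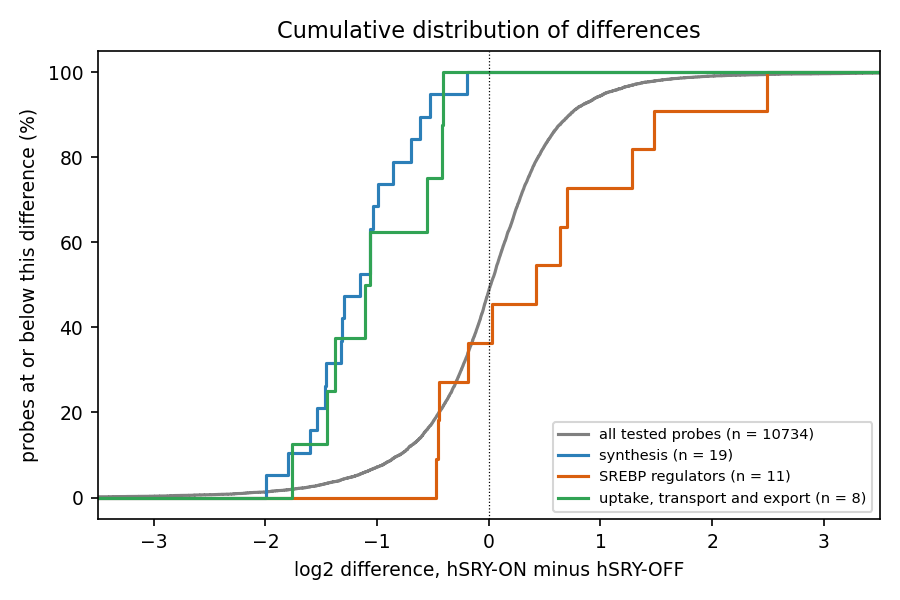
Cumulative share of probes, in percent, at or below each log2 difference (hSRY-ON minus hSRY-OFF) for all 10734 tested probes and for the 19 synthesis, 11 regulator and 8 uptake, transport and export probes. The synthesis curve and the uptake, transport and export curve reach 100% below 0, while the regulator curve runs on to 2.49.

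In the mevalonate pathway all 4 tested genes were lower in hSRY-ON. *Acat2*, the cytosolic thiolase that makes acetoacetyl-CoA for the pathway, stood at 10.43, 10.52 and 10.45 in hSRY-OFF replicates 1 to 3 and at 8.97, 8.65 and 9.17 in hSRY-ON replicates 1 to 3. The hSRY-OFF arrays were close together, and each hSRY-ON array was more than 1 log2 unit below them. The difference was -1.54 ± 0.15 (SE; adjusted p = 0.000658), or 2.90-fold lower. *Mvd*, whose product decarboxylates mevalonate diphosphate, read 8.0, 8.16 and 8.71 in hSRY-OFF and 6.85, 6.86 and 6.74 in hSRY-ON. All 3 hSRY-ON arrays were lower than every control, and hSRY-OFF replicate 3 was the highest. The *Mvd* difference was -1.47 ± 0.19 (adjusted p = 0.0018).

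*Pmvk*, the phosphomevalonate kinase, read 7.51, 7.63 and 7.95 in hSRY-OFF and 6.61, 6.62 and 6.86 in hSRY-ON, a difference of -1.0 ± 0.15 (adjusted p = 0.00341). *Fdps*, the farnesyl diphosphate synthase, read 12.11, 12.24 and 12.41 in hSRY-OFF and 11.28, 11.30 and 11.005 in hSRY-ON, a difference of -1.06 ± 0.14 (adjusted p = 0.00189). The groups did not overlap for either gene, and both were about 2-fold lower. *Idi1*, the isopentenyl diphosphate isomerase that acts just before *Fdps*, was detected on 0 of 6 arrays and was not tested.

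The conversion of farnesyl diphosphate to lanosterol was read by *Sqle* and *Lss*. *Sqle* encodes squalene epoxidase, and its probe ILMN_2600348 read 9.24, 9.22 and 9.63 in hSRY-OFF and 8.63, 8.02 and 8.88 in hSRY-ON, a difference of -0.86 ± 0.24 (adjusted p = 0.029). The second *Sqle* probe, ILMN_2737163, went from a mean of 10.71 ± 0.13 (SD, n = 3) to 10.01 ± 0.55 and was not called, with a difference of -0.69 and a 95% confidence interval of -1.31 to -0.08 (limma adjusted p = 0.0788). It was called under 4 alternatives, among them without hSRY-ON replicate 3, and its difference ranged from -0.92 to -0.39 as arrays were left out. At both probes the groups did not overlap and hSRY-ON replicate 2 was the lowest array. *Lss*, the lanosterol synthase that closes the sterol rings, read 9.09, 9.21 and 9.77 in hSRY-OFF and 9.19, 9.19 and 9.10 in hSRY-ON. Its groups overlapped, and the difference of -0.20 (95% confidence interval -0.64 to 0.24) was not called (adjusted p = 0.454). Without hSRY-OFF replicate 3, the highest control, the *Lss* difference was 0.00969.

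From lanosterol to cholesterol, 11 of 12 tested probes, for 8 of 9 genes, were lower, with a median difference of -1.31. *Cyp51* encodes the demethylase that begins this stretch. It read 10.08, 10.33 and 10.43 in hSRY-OFF and 8.52, 8.48 and 8.44 in hSRY-ON. The hSRY-ON arrays were close together and the groups far apart, with a difference of -1.80 ± 0.13 (adjusted p = 0.000194), or 3.48-fold lower.

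*Sc5d*, the sterol desaturase that acts on lathosterol, read 6.94, 6.97 and 7.33 in hSRY-OFF and 4.94, 5.01 and 5.31 in hSRY-ON. The probe was detected on 3 of 3 hSRY-OFF and 0 of 3 hSRY-ON arrays, so its level in hSRY-ON is only bounded by the dimmest detected probes of those arrays, and *Sc5d* was at least 2.59-fold lower with the background corrected (adjusted p = 0.000291). Without background correction its difference was -0.74 (adjusted p = 0.000937), which is a smaller fall than this bound. *0610007P14Rik*, now named *Erg28*, encodes a membrane protein known from yeast as a scaffold for the sterol demethylation enzymes. It read 11.23, 11.54 and 11.28 in hSRY-OFF and 9.88, 9.97 and 9.83 in hSRY-ON, and the difference was -1.45 ± 0.13 (adjusted p = 0.000397). *Sc4mol*, now *Msmo1*, is the methylsterol monooxygenase, and it read 10.58, 10.79 and 10.99 in hSRY-OFF and 9.19, 8.88 and 9.48 in hSRY-ON. It was 3.03-fold lower, with a difference of -1.60 ± 0.19 (adjusted p = 0.00114). None of these genes had an hSRY-ON array that reached the lowest control.

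*Nsdhl*, the dehydrogenase that removes the oxidised methyl carbon after *Sc4mol*, was read by 4 probes, all of them lower. Probe ILMN_2594521 read 8.90, 8.89 and 9.14 in hSRY-OFF and 7.79, 7.54 and 7.72 in hSRY-ON, a difference of -1.30 ± 0.13 (adjusted p = 0.000687). The other probes differed by -1.32, -1.15 and -0.61. The probe at -1.15, ILMN_2725402, was detected on 1 of 3 hSRY-ON arrays, with an hSRY-ON mean of 5.72. The last of these, ILMN_2958207, was detected on 2 of 3, with a mean of 5.68. Both means were at the level of the dimmest detected probes, so the sizes of these differences are not set against those of the other probes. ILMN_2958207 was not called without background correction (-0.21; adjusted p = 0.0713) or when some arrays were left out.

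The remaining genes of this stretch ranked after these by p. *Dhcr7*, the reductase that yields cholesterol itself, differed by -1.32 ± 0.20 (adjusted p = 0.00335). *Tm7sf2*, a sterol reductase, differed by -1.07 ± 0.19 (adjusted p = 0.00609) and was detected on 2 of 3 hSRY-ON arrays. *Ebp*, the sterol isomerase, differed by -1.04 ± 0.20 (adjusted p = 0.00776). *Hsd17b7*, the ketosteroid reductase, was the only gene of the stretch that was not called. It went from 11.32 ± 0.20 (SD, n = 3) to 10.80 ± 0.25, with a difference of -0.53 (95% confidence interval -0.93 to -0.12; limma adjusted p = 0.0514) and no overlap of the groups.

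**Figure D2:**
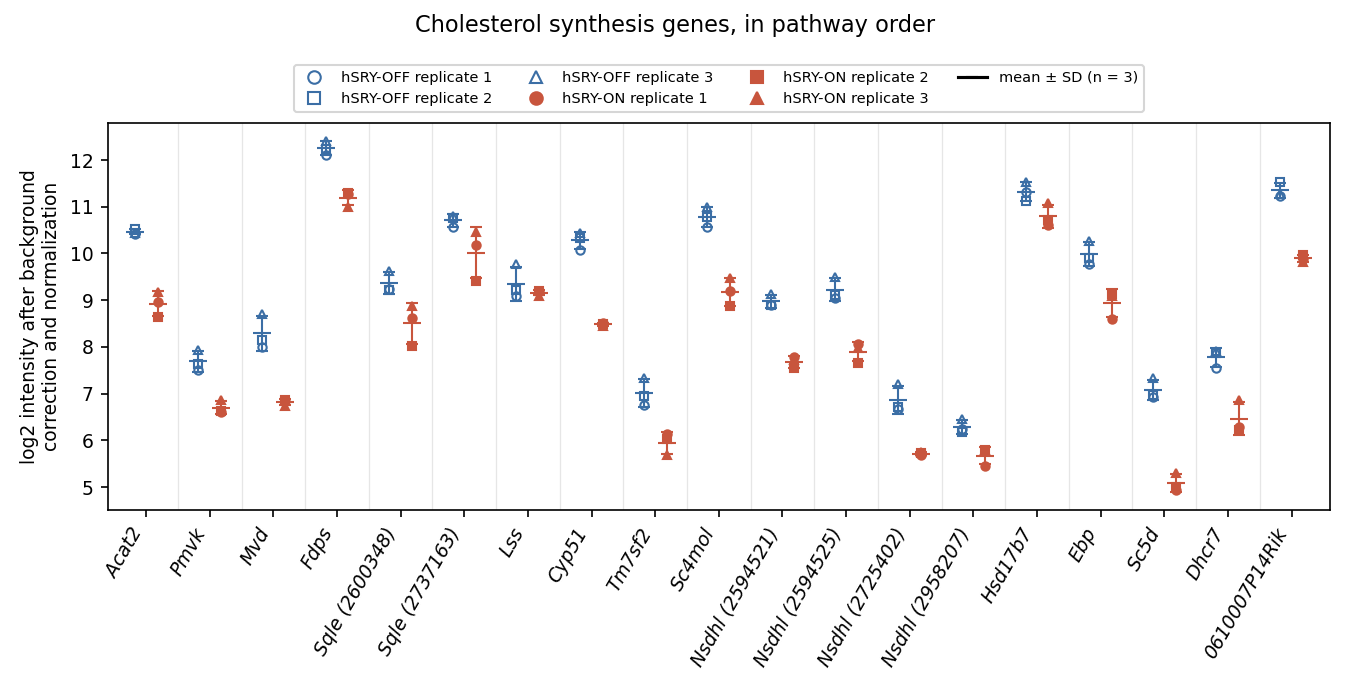
Log2 intensity (vertical axis) of the 19 tested synthesis probes in pathway order on each of the 6 arrays, open symbols for hSRY-OFF and filled symbols for hSRY-ON, with bars for the mean and SD of 3 arrays. *Sqle* and *Nsdhl* have several probes, marked by their ILMN number. At every probe but *Lss* the 3 hSRY-ON arrays lie below the 3 hSRY-OFF arrays.

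Across the synthesis genes the hSRY-ON arrays stood below all hSRY-OFF arrays at 18 of the 19 tested probes, where 24.6% of all tested probes did so, and 13 of the 19 were called and at least 2-fold lower, where 6.96% of all tested probes were. The median deviation of the synthesis probes from the hSRY-OFF mean was -1.19, -1.35 and -1.24 on hSRY-ON replicates 1 to 3, so that the 3 animals were close together. Among the controls hSRY-OFF replicate 3 was the highest at 17 of the 19 probes and hSRY-OFF replicate 1 the lowest at 15. In hSRY-ON no replicate held such a place, with replicate 3 the highest at 9 probes and replicates 1 and 2 at 5 each. With each of the 6 arrays left out in turn, between 14 and 18 synthesis probes were called lower and 0 higher. Without background correction 16 were called lower, but the differences of dim probes shrank, for *Dhcr7* to -0.69, *Mvd* to -0.89, *Pmvk* to -0.54, *Tm7sf2* to -0.45 and *Nsdhl* ILMN_2725402 to -0.45.

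Promoter sequences are shown for the 5 synthesis genes of smallest p, since these genes moved together. They are the 250 bases before the annotated RefSeq start site (mouse build GRCm38.p6), read 5′ to 3′ on the strand of the gene. Of the 35 genes 28 had a RefSeq promoter in the table used, with 35 start sites. Capitals mark the CCAAT box (CCAAT, or ATTGG where it lies on the other strand), the GC box (GGGCGG or CCGCCC) and the palindromic E-box CACGTG, which are the letters bound by NF-Y, by SP1-type factors and by basic helix-loop-helix factors, the protein class to which SREBP belongs.
Cyp51, chr5:4104698-4104947, minus strand: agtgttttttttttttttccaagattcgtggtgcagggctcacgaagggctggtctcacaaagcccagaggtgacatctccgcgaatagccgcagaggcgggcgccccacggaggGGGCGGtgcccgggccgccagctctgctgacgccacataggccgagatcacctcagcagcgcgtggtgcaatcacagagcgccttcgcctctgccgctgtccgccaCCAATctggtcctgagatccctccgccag
Sc5d, chr9:42264301-42264550, minus strand: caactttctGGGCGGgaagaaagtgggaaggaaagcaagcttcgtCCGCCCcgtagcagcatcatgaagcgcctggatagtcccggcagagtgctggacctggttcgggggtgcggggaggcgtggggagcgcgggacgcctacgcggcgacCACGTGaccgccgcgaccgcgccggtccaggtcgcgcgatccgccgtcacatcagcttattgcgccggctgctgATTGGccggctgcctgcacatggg
Erg28 (0610007P14Rik), chr12:85824894-85825143, minus strand: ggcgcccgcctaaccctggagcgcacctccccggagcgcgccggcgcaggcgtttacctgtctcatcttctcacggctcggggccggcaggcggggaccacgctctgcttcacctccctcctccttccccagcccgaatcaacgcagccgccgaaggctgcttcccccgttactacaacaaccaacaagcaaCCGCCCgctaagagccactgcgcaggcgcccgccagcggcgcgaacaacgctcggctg
Acat2, chr17:12960726-12960975, minus strand: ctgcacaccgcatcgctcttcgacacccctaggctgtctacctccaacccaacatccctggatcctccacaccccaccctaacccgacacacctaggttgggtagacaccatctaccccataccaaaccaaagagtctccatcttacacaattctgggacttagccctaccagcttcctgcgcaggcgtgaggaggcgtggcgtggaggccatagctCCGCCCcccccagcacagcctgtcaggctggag
Nsdhl, chrX:72918271-72918520, plus strand: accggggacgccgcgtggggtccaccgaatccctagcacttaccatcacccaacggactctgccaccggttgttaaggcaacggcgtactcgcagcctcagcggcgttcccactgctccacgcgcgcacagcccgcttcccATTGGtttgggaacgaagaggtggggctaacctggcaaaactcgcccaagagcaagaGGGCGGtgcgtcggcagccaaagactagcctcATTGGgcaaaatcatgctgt

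A CCAAT box was found in the *Cyp51*, *Sc5d* and *Nsdhl* windows and not in those of *Erg28* and *Acat2*, and a GC box was found in all 5. The *Cyp51* CCAAT box began at position -29 from the start site and that of *Sc5d* at -24. Among the 19 windows of synthesis genes, 14 (73.7%) held CCAAT, against 33.8% of all 32851 promoters and 35.4% of the promoters of tested symbols. GGGCGG was in 16 of the 19 (84.2%), against 32.7% and 56.1%. CACGTG was in 3 of the 19 (15.8%), against 6.02% and 8.39%. The core of the sterol regulatory element, TCACNCCAC on either strand, was in 1 of the 19 windows, that of *Hmgcs1*, where TCACCCCAC began at -137, against 1.05% of all promoters. These 19 windows include those of genes that were not measured, tested or called (*Hmgcs1*, *Mvk*, *Idi1*, *Lss* and *Hsd17b7*). Among the 14 windows of synthesis genes called lower, CCAAT was in 9 (64.3%), GGGCGG in 11 (78.6%), CACGTG in 2 (14.3%) and TCACNCCAC in 0. No match of one motif overlapped one of another. These are matches of letters, and other spellings of the sterol regulatory element were not searched.

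Of the genes that control SREBP, *Insig2* was higher in hSRY-ON. *Insig2* encodes one of the proteins that hold SCAP and SREBP in the endoplasmic reticulum, and all 3 of its probes were called higher, against 15.8% of all tested probes. Probe ILMN_1234858 read 6.52, 6.58 and 7.12 in hSRY-OFF and 9.42, 9.22 and 9.04 in hSRY-ON. At all 3 probes every hSRY-ON array was above every control, which 25.4% of all tested probes showed, and at this probe the difference was 2.49 ± 0.19 (adjusted p = 0.00025), or 5.61-fold higher. Probe ILMN_1216822 read 10.06, 10.40 and 10.45 against 11.55, 11.80 and 11.42, a difference of 1.29 ± 0.16 (adjusted p = 0.00146). Probe ILMN_2690256 read 6.79, 7.30 and 7.15 against 8.22, 9.10 and 8.35, a difference of 1.48 ± 0.25 (adjusted p = 0.00506). Without background correction the 3 probes stayed called, at 1.64, 1.21 and 0.95 in this order, so that the size of the change, and the gap between the probes, depended on that step. The transcripts that each probe reads were not given in the sources used here.

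*Insig1*, the companion of *Insig2* and itself known as a target of SREBP, was not called at any of its 3 tested probes. ILMN_2895388 was the probe of smallest p and read 5.24, 5.45 and 5.89 in hSRY-OFF and 6.43, 6.61 and 5.63 in hSRY-ON, a difference of 0.70 with a 95% confidence interval of 0.03 to 1.36 (adjusted p = 0.0977). This dim probe was detected on only 1 of 3 hSRY-OFF and 2 of 3 hSRY-ON arrays, so the other values are undetected signal. Without background correction its difference was 0.24. hSRY-ON replicate 3 lay among the controls at this probe and at the others. The other tested probes differed by 0.43 (-0.44 to 1.29; adjusted p = 0.41) and 0.63 (-0.12 to 1.38; adjusted p = 0.166), and the last *Insig1* probe was detected on 0 arrays. All 3 tested *Insig1* differences were above 0, but none passed the threshold, and the probes read the same gene on the same arrays. Leaving out 1 array moved the *Insig1* differences over 0.51 to 1.0 at ILMN_2895388, 0.10 to 0.76 at ILMN_1245272 and 0.33 to 0.89 at ILMN_2606693. ILMN_2895388 was called higher without hSRY-ON replicate 3, and it and ILMN_2606693 were with arrays weighted by quality.

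The promoter of *Insig1* is shown beside windows of *Insig2*, to set the uncalled gene of the pair against the one that was higher. *Insig2* has 3 RefSeq start sites, and its windows were added after its values were seen. That of the start site nearest the gene's end lies just past the middle one and is not shown. Capitals mark the same motifs as above.
Insig1, chr5:28071162-28071411, plus strand: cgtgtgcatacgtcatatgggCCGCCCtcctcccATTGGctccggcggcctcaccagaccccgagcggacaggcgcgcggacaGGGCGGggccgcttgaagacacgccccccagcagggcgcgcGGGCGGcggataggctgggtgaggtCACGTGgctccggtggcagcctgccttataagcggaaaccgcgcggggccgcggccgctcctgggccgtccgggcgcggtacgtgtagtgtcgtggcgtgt
Insig2, distal start site, chr1:121332590-121332839, minus strand: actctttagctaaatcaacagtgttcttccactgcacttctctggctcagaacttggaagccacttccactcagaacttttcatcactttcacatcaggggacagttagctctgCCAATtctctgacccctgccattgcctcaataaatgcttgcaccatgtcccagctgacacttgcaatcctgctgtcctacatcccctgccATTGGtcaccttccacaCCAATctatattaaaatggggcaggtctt
Insig2, middle start site, chr1:121328025-121328274, minus strand: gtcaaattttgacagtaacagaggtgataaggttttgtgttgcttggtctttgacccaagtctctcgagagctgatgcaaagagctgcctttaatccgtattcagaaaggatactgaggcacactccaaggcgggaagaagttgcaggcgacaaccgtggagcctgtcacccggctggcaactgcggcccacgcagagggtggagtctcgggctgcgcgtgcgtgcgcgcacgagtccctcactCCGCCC

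The *Insig1* window held 1 CCAAT box, 3 GC boxes and 1 E-box. The window of the distal *Insig2* start site held 3 CCAAT boxes and 0 GC boxes, and that of the middle start site held 1 GC box and 0 CCAAT boxes. The window not shown also held 1 GC box and 0 CCAAT boxes.

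*Srebf2*, which encodes the SREBP most closely tied to cholesterol synthesis, read 8.10, 8.53 and 8.44 in hSRY-OFF and 7.99, 8.19 and 8.34 in hSRY-ON. The groups overlapped and the difference of -0.18 was not called (95% confidence interval -0.56 to 0.19; adjusted p = 0.414). The arrays read its RNA and not the protein. *Scap*, the escort, read 8.22, 8.13 and 8.31 in hSRY-OFF and 8.14, 8.65 and 7.94 in hSRY-ON, a difference of 0.03 (-0.42 to 0.48; adjusted p = 0.931). The hSRY-ON arrays lay on both sides of the controls, and the sign of the *Scap* difference turned to -0.00823 under median scaling.

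*Mbtps1* encodes the first of the proteases that free SREBP in the Golgi. Its 3 tested probes were each called lower, by small amounts. ILMN_1245330, that of smallest p, read 9.28, 9.60 and 9.42 in hSRY-OFF and 8.98, 9.03 and 8.87 in hSRY-ON, a difference of -0.47 ± 0.13 (adjusted p = 0.0287). The other probes differed by -0.44 (adjusted p = 0.0386) and -0.46 (adjusted p = 0.0499). The groups did not overlap, but between 0 and 2 of the 3 probes stayed called when an array was left out, and 0 were called under median scaling. A further *Mbtps1* probe and both probes of *Mbtps2*, the protease that acts after it, were detected on 0 arrays.

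**Figure D3:**
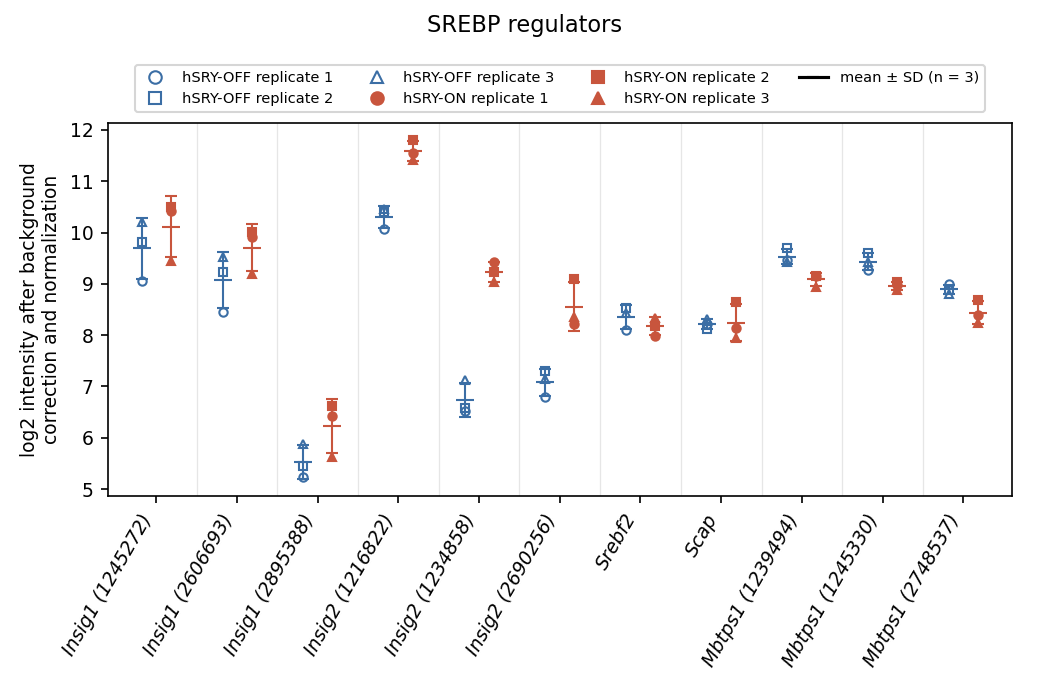
Log2 intensity (vertical axis) of the 11 tested probes of SREBP regulators on each of the 6 arrays, open symbols for hSRY-OFF and filled symbols for hSRY-ON, with bars for the mean and SD of 3 arrays and probes of one gene marked by their ILMN number. The 3 *Insig2* probes are higher on all hSRY-ON arrays, the *Mbtps1* probes differ by -0.47 to -0.44, and the groups overlap for *Insig1*, *Srebf2* and *Scap*.

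Genes of esterification and intracellular transport were lower as well. *Soat2* encodes the enzyme that esterifies cholesterol in hepatocytes, often called ACAT2 and distinct from the thiolase gene *Acat2* above. Its probe ILMN_1227282 read 11.30, 11.26 and 11.19 in hSRY-OFF and 9.55, 9.46 and 9.45 in hSRY-ON, with little spread in either group. The difference was -1.76 ± 0.11 (adjusted p = 0.000139), or 3.39-fold lower, and its second probe differed by -1.38 ± 0.19 (adjusted p = 0.00197), or by -0.66 without background correction. *Stard4*, which encodes a soluble sterol carrier, read 8.64, 8.96 and 8.73 in hSRY-OFF and 7.52, 7.67 and 7.83 in hSRY-ON. The groups did not overlap and the difference was -1.10 ± 0.14 (adjusted p = 0.00164).

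Of the uptake genes only *Scarb1*, the receptor for high-density lipoprotein, was tested. It was detected on 2 of 3 hSRY-ON arrays and read 6.39, 6.82 and 6.63 in hSRY-OFF and 6.25, 6.52 and 5.42 in hSRY-ON. The groups overlapped, the lowest array was hSRY-ON replicate 3, and the difference of -0.55 was not called (95% confidence interval -1.21 to 0.11; adjusted p = 0.171). *Npc1l1*, the sterol importer known from the gut, was detected on 0 arrays. *Npc2*, the lysosomal cholesterol carrier, was detected on 0 of 3 hSRY-OFF and 2 of 3 hSRY-ON arrays and was not tested.

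*Abcg5* and *Abcg8*, neighbours on chromosome 17, encode the partners of the transporter that exports sterols into bile. *Abcg5* read 12.48, 12.49 and 12.72 in hSRY-OFF and 11.11, 12.38 and 11.01 in hSRY-ON. *Abcg8* read 11.26, 11.54 and 11.37 in hSRY-OFF and 9.55, 11.26 and 9.0 in hSRY-ON. For both genes hSRY-ON replicates 1 and 3 were far below the controls and hSRY-ON replicate 2 was next to them.

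With all 6 arrays neither exporter gene was called, at -1.06 ± 0.35 for *Abcg5* (adjusted p = 0.0509) and -1.45 ± 0.52 for *Abcg8* (adjusted p = 0.0668). Without hSRY-ON replicate 2 the differences were -1.51 for *Abcg5* and -2.12 for *Abcg8*, and both were called (adjusted p = 0.00101 for each). The same array did not stand apart at the synthesis probes, where its median deviation of -1.35 was the lowest of the 3. That animal thus had synthesis genes as low as the others and exporter genes near control level.

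*Lcat*, the plasma enzyme that esterifies cholesterol on high-density lipoprotein, was not called at either probe. ILMN_2798402 read 12.98, 13.14 and 12.92 in hSRY-OFF and 12.67, 12.88 and 12.26 in hSRY-ON, a difference of -0.41 (95% confidence interval -0.82 to 0.01; adjusted p = 0.115), and the other probe differed by -0.42 (adjusted p = 0.197). *Abca1*, which loads cholesterol onto nascent high-density lipoprotein, was detected on 0 arrays by its probe. In the group as a whole all 8 tested differences were below 0, from -1.76 to -0.41. At 5 of the 8 probes the hSRY-ON arrays were all below the controls, where 24.6% of all tested probes showed this. Of the 8 probes 3 were called, those of *Soat2* and *Stard4*.

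**Figure D4:**
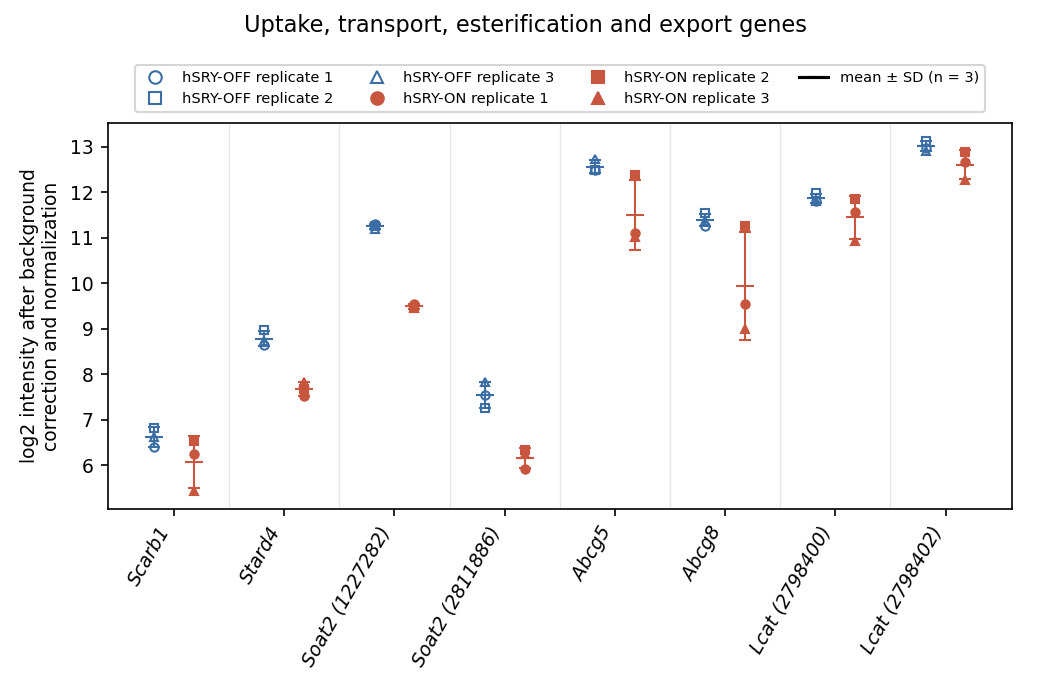
Log2 intensity (vertical axis) of the 8 tested uptake, transport, esterification and export probes on each of the 6 arrays, open symbols for hSRY-OFF and filled symbols for hSRY-ON, with bars for the mean and SD of 3 arrays and probes of one gene marked by their ILMN number. *Soat2* and *Stard4* are lower on all 3 hSRY-ON arrays, and at *Abcg5* and *Abcg8* hSRY-ON replicate 2 lies beside the controls.

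**Figure D5:**
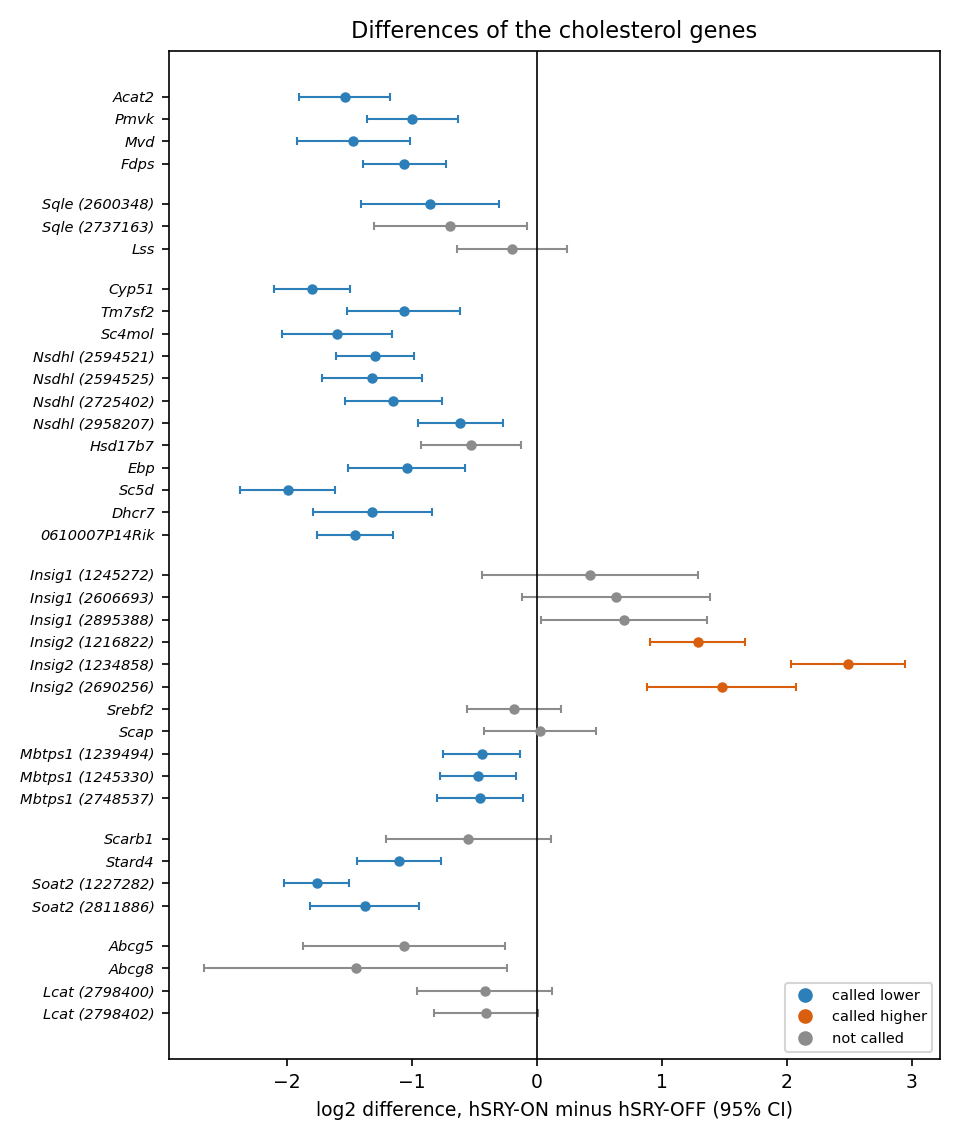
Log2 difference (hSRY-ON minus hSRY-OFF, horizontal axis) with its 95% confidence interval for each of the 38 tested probes, grouped by role from the mevalonate pathway at the top to export at the bottom. Colours mark the 22 probes called lower, the 3 called higher and the 13 not called.

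Genes around the pathway were read from further lists, whose counts stand beside the 17.2% of all tested probes called lower and the 15.8% called higher. Of the electron donors that serve the sterol oxidising enzymes, 6 of 9 tested probes, for 4 of 5 genes, were lower and 0 were higher. *Cyb5r3*, the cytochrome b5 reductase, was lower at its 3 probes (-0.49, -0.94 and -0.91; adjusted p = 0.0177, 0.00461 and 0.00121). *Cyb5*, its microsomal partner, differed by -0.92 (adjusted p = 0.0106), *Cyb5b* by -0.45 (adjusted p = 0.0364) and *Pgrmc1*, a heme protein that binds cytochromes P450, by -0.46 (adjusted p = 0.0467). The *Pgrmc1* probe was dim and detected on 2 of 3 hSRY-ON arrays. *Por*, the cytochrome P450 reductase, had differences of 0.91 to 1.06 at 3 probes, and none was called (adjusted p = 0.0645 to 0.0884).

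In the branch from farnesyl diphosphate to dolichol, ubiquinone and prenylated proteins, 0 of 8 tested probes were lower in limma, also at an unadjusted p under 0.05, and 1 was higher, *Nus1*, a subunit of the dolichol-making prenyltransferase (0.94; adjusted p = 0.00129). With 17.2% of all tested probes called lower, a count of 0 among 8 is close to the background. Among genes of sterol-linked protein degradation 1 of 10 tested probes was lower, that of *Ubxd8*, now *Faf2*, which recruits the degradation machinery to the endoplasmic reticulum (-0.92; adjusted p = 0.0037), and 0 were higher.

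Among sterol transfer and storage genes 1 of 7 tested probes was lower and 2 were higher. *Tmem97*, a sterol-responsive membrane protein, differed by -0.85 (adjusted p = 0.00218). *Aadacl1*, now *Nceh1*, a cholesteryl ester hydrolase, differed by 1.2 (adjusted p = 0.000615). *Lip1*, now *Lipa*, of the same list was never detected, and *Soat1* had no tested probe. *Osbpl2*, an oxysterol-binding protein relative, differed by 0.50 (adjusted p = 0.0224).

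Of the lipoprotein receptors and their partners 3 of 9 tested probes were lower and 3 were higher. The higher ones were all of *Vldlr*, the very low-density lipoprotein receptor (1.63, 1.56 and 1.66; adjusted p = 0.000347, 0.000753 and 0.000926). The lower ones were *Lrpap1*, the receptors' chaperone (-0.93; adjusted p = 0.00201), *Lrp1* (-0.66; adjusted p = 0.044) and *Lsr* (-0.53; adjusted p = 0.0231). *Lrp1* was detected on 1 of 3 hSRY-ON arrays, with an hSRY-ON mean of 5.39, so the size of its difference rests largely on undetected signal. Of the oxysterol and liver X receptor (LXR) genes 3 of 9 probes were lower and 4 were higher. *Nr1h3*, which encodes LXR alpha, was lower at both probes (-0.94 and -1.07; adjusted p = 0.00414 and 0.013), as was *Pltp*, the phospholipid transfer protein (-0.68; adjusted p = 0.0185). The *Nr1h3* probe at -1.07 was dim and detected on 2 of 3 hSRY-ON arrays. *Cyp27a1*, a mitochondrial sterol hydroxylase, was higher at 3 probes (1.21, 1.15 and 1.42; adjusted p = 0.0291, 0.0386 and 0.00845), and *Nr1h2*, which encodes LXR beta, at 1 (0.50; adjusted p = 0.0159).

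Markers of the cell types of neonatal liver also differed between the groups, and their counts have the same background of 17.2% lower and 15.8% higher. Of the hepatocyte markers 4 of 12 tested probes were lower and 0 higher, with a median of -0.14, and the summed intensity of the tested probes ranged from 230398 to 239649 in hSRY-OFF and from 211409 to 224129 in hSRY-ON, while *Tat* was never detected. Of the erythroid markers 6 of 13 were higher and 0 lower, with a median of 0.90, and the sum of the tested probes ranged from 65612 to 87004 and from 86624 to 98905. *Hba-a1* read 15.50 on each of the 6 arrays, near the top of the intensity scale, and so added the same amount to every sum. *Epb4.2* and *Spna1* were never detected. The called hepatocyte probes were *Alb* (-1.11), both probes of *Serpina1a* (-1.11 and -0.91) and *Ttr* (-0.46). The *Alb* probe was dim, with an hSRY-OFF mean of 7.93 against 15.41 at *Ahsg* ILMN_2764036. Of the uncalled probes, those of *Ahsg*, *Apoa1*, *Apoa2* and *Fga* lay near the top of the intensity scale, where differences can be compressed. *Hnf4a*, with an hSRY-OFF mean of 9.94, differed by -0.09 and *Ass1* by 0.40, and neither was called.

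Of the macrophage markers 4 of 12 tested probes were lower and 1 higher, with sums of 18502 to 20719 in hSRY-OFF and 13034 to 22593 in hSRY-ON, and *Cd163* and *Cd5l* were never detected. The neutrophil markers had 0 of 11 called (1 lower and 0 higher at an unadjusted p under 0.05 in limma), with sums of 52126 to 61291 and 41249 to 110143, and *Mmp8* was never detected. Of the stellate cell markers 2 of 13 were lower and 5 higher, with sums of 15659 to 17275 and 25644 to 26404, and *Col1a2* was never detected. Of the higher stellate probes 4 were of *Acta2* (2.46 to 3.13) and 1 of *Des* (0.77), and the lower ones were of *Lrat* (-1.66) and *Reln* (-0.66). *Lrat* was detected on 0 of 3 hSRY-ON arrays, so the size of its difference rests on undetected signal, and no bound was worked out for it. The endothelial markers had 1 of 11 lower and 3 higher, with sums of 10940 to 13454 and 10118 to 12649, and *Kdr* was never detected. Of the bile duct markers 2 of 3 were lower, with sums of 402 to 542 and 261 to 338, and *Cftr*, *Krt19* and *Sox9* were never detected. The part of these cell types in the cholesterol gene differences was not tested.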

How the data were processed

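Liver RNA of 3 hSRY-ON and 3 hSRY-OFF male mice was hybridised to Illumina MouseRef-8 v2.0 BeadChips. The authors deposited 1 table of non-normalized intensity values (mean bead signal per probe) with a detection p-value for each probe and array, and it holds 0 columns without a sample. The study's methods name the R package TCC for normalization and testing, and the submitters' processing notes name limma, so the deposited intensities were analysed anew. In limma 3.58.1 (R 4.3.3) background was corrected by normexp with parameters taken from the detection p-values (nec, offset 16), arrays were quantile normalized, and log2 values were fitted with lmFit and eBayes, hSRY-ON minus hSRY-OFF, with Benjamini-Hochberg adjustment over all tested probes. The offset understates fold changes of dim probes, while the background correction enlarges them relative to uncorrected intensities, so that the size of a dim probe's change depends on this step. A tested member probe not detected on any array of a group is given as a bound, and no bound was worked out for probes of the other lists. Groups and replicate numbers came from the sample titles. The methods give 3 mice per group, and the labels name no slide, litter or scan batch. The script was tested on simulated data.

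The members and gene lists were chosen with earlier results of these data known. Every member is named, with per-array values for up to 5 genes of each stage by smallest p and for *Srebf2*, *Scap*, *Insig1* and *Insig2*, at the probe of smallest p. In the other pathway lists the called members are named. Symbols were matched to RefSeq gene names, older symbols included, and 31 of 35 members were found. Motifs were searched on both strands of RefSeq promoters, 250 bases before each start (GRCm38.p6). The alternatives tried were other background corrections and offsets, median scaling, a trimmed mean of M values, other detection filters, an intensity trend, array weights, the replicate number as a block, a stricter threshold, 1 probe per symbol and each array left out in turn.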

Additional observations from a re-analysis of the deposited data

How the results depend on the processing

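Of the 25 called probes, 20 kept their call under every alternative in which they were tested and 0 changed sign. The exceptions were *Sqle* ILMN_2600348, *Nsdhl* ILMN_2958207 and the 3 *Mbtps1* probes. Of the 13 uncalled probes 2 changed sign, *Lss* to 0.00969 without hSRY-OFF replicate 3 (range with each array left out -0.33 to 0.00969) and *Scap* to -0.00823 under median scaling, -0.02 without hSRY-OFF replicate 2 and -0.18 without hSRY-ON replicate 2 (range -0.18 to 0.18). The count of regulator probes called lower, 3, was 0 under median scaling and at an adjusted p under 0.01, and 1 with a trimmed mean of M values and with 1 probe per symbol. Regulator probes called higher were 5 with array weights and 1 with 1 probe per symbol. Transport probes called lower, 3, were 5 under median scaling, a trimmed mean of M values and array weights. Leaving out each array in turn gave 1142 to 2122 probes called lower and 894 to 1945 called higher over all tested probes, 0 to 2 regulator probes lower and 3 to 6 transport probes lower. Among these, the counts over all probes were lowest without hSRY-OFF replicate 1 and next lowest without hSRY-OFF replicate 2 (1190 lower and 974 higher). They were 974 lower and 695 higher at an adjusted p under 0.01. Same-numbered arrays correlated at 0.02 to 0.10 in their deviations from the group means, so the numbers were not taken as pairs. With the replicate number as a block, 17 synthesis, 1 regulator and 4 transport probes were called lower, of 1645 over all tested probes, and 1568 probes were called higher. The cause of these changes was not tested. Without background correction differences of dim probes shrank, that of *Sc5d* to -0.74 and that of *Insig2* ILMN_1234858 to 1.64. With 3 arrays a group, calls near the threshold moved: *Hsd17b7* (adjusted p = 0.0514) was called under 10 of 17 alternatives, *Abcg5* under 9, *Abcg8* under 5 and *Sqle* ILMN_2737163 under 4.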
